A study of Mus musculus with 44 samples.

Results

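The renin-angiotensin system was followed here through 8 genes in mouse kidney: the substrate gene Agt, the protease genes Ren1, Ace, Mme and Enpep, the receptor genes Agtr1a and Mas1, and Atp6ap2, which encodes the prorenin receptor. The 8 genes were chosen by name and all 8 were found among the 24733 genes that held any value. A mean of at least 1 TPM, a transcript's share of a library scaled to a fixed total, was required for testing. It was reached by 7 of the 8 genes, and Mas1 fell under it. Polyadenylated kidney RNA had been sequenced from mice of strain 129SV, aged 8 to 12 weeks after birth, that were all fed at night only. The mice were either wild type (WT) or carried a knockout (KO) of Arntl, also called Bmal1, whose product is an activator in the circadian clock. The labels name no Cre line or tissue for the knockout and give no sex. Kidneys were taken at zeitgeber time (ZT) 0, 4, 8, 12, 16 and 20 h, giving 12 groups of 2 libraries each, named A and B. The labels do not say that libraries came from separate animals, so p-values measure the spread between libraries.

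Renin is secreted by juxtaglomerular cells of the afferent arteriole and cuts angiotensinogen to angiotensin I. Angiotensin-converting enzyme, the product of Ace, turns angiotensin I into angiotensin II, which acts on the receptor encoded by Agtr1a to constrict vessels and retain sodium. Neprilysin (Mme) and aminopeptidase A (Enpep) sit on the brush border of the proximal tubule and trim these peptides further, and Mas1 encodes a receptor for a shorter product. The kidney also makes its own angiotensinogen, mainly in the proximal tubule. In blood, components of this system vary over the day with salt balance, posture and activity.

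The libraries were compared before any gene was tested. Mitochondrially encoded genes took 40.5 ± 1.31% of TPM in WT and 37.6 ± 1.97% in KO (SD, n = 12 each). TPM are shares of a fixed total. The median gene was 0.15 higher in KO on the log2 scale, and 83.6% of all genotype calls were higher in KO. Without the mitochondrially encoded genes that share was 72.8%. With median-of-ratios scaling the median moved to 0.00 and the share to 49.9%, so the genotype results below are also given on that scale where it changes a call. Shares of all genes called higher or lower, given below, belong to the TPM scale. Arntl itself stood at 0.295 to 12.9 TPM in WT, with a strong daily cycle, and at 4.19 to 6.28 TPM in KO with none past the threshold; its transcript was still measured in KO. The library labelled KO ZT4 A went against its label: its Cry1 level was 1.03 TPM where the other 11 KO libraries held 11.5 to 17.8, and its Nr1d1 level was 23.9 TPM where they held 1.24 to 3.46. The library labelled KO ZT12 A differed in another way, with 3.31 TPM summed over 4 Y-linked genes against 48.0 to 69.2 in the other 23. Results are given with both libraries, and those of the 8 genes and the lists also without them where that changes a call.

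Sequence around the transcription starts was drawn from RefSeq (build GRCm38.p6) for the 5 genes called different between genotypes among the 7 tested, with the separate starts of Ace and Mme because their transcripts are compared below. Each window runs 5′ to 3′ on the gene's strand from 250 bases before to 50 bases after the start, and capitals mark matches to the motifs searched.
Ren1 (chr1:133350424-133350723, plus strand): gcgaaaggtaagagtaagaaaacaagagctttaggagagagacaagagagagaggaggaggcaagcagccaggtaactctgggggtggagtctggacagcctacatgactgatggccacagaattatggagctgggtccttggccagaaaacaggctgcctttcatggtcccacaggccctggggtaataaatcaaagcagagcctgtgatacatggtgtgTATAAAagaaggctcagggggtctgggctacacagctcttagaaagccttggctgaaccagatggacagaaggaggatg
Agt (chr8:124569657-124569956, minus strand): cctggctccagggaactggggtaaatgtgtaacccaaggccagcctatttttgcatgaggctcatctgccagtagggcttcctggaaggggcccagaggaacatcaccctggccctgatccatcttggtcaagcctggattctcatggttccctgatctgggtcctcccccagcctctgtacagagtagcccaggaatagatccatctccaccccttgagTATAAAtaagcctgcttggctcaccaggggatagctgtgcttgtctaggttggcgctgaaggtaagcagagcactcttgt
Ace upstream start (chr11:105967698-105967997, plus strand): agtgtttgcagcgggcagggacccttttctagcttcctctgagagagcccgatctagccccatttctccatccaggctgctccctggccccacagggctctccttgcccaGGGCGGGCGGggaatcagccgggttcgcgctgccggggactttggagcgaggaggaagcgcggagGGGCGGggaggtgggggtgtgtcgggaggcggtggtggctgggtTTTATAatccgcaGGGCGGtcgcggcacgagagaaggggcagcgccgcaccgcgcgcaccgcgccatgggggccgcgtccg
Ace internal start (chr11:105974939-105975238, plus strand): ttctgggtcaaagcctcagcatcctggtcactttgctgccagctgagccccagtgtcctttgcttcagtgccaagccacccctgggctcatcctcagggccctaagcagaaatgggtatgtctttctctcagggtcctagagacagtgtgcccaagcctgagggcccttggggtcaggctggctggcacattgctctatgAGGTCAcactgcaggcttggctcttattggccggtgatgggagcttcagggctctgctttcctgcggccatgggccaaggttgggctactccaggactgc
Mme-205 start (chr3:63295622-63295921, plus strand): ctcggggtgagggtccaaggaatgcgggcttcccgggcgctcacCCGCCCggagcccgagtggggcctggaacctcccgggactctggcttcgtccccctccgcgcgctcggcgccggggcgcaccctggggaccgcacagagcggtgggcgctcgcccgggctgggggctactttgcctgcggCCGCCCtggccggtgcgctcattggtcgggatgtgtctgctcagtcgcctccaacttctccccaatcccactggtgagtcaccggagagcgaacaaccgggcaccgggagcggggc
Mme-201 start (chr3:63295845-63296144, plus strand): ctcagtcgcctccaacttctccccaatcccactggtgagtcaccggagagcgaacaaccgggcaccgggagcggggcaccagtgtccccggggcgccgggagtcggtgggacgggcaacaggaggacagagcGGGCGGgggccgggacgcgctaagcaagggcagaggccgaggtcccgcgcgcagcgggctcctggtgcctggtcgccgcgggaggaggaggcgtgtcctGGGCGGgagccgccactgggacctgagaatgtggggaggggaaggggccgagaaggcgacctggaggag
Atp6ap2 (chrX:12587509-12587808, plus strand): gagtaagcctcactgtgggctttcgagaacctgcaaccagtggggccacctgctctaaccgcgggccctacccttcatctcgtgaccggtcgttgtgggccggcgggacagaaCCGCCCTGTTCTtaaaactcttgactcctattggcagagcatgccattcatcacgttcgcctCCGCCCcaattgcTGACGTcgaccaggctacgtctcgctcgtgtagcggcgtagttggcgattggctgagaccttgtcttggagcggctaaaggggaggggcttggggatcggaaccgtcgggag
A window was found for 7 of the 8 genes, 10 windows in all. The motifs, searched on both strands, were the E-box CACGTG, bound by the factor that Arntl encodes, the D-box TTATGTAA, the ROR core AGGTCA, the cAMP element TGACGTCA with the shorter TGACGT it contains, the steroid receptor site AGAACA, the GC box GGGCGG, and TATAAA, found in the TATA box. A TATA match lay at position -29 in Ren1 and -30 in Agt, counted from 0 at the start, and on the other strand at -31 in the upstream Ace window. It was also found in Enpep, and 13.6% of all 32851 promoter windows held one. GC boxes were found in the upstream Ace window, all 3 Mme windows and Atp6ap2, against 35.7% of all windows. Atp6ap2 held a TGACGT at -62, as 7.51% of windows did, and an AGAACA match on the other strand, as 19% did. AGGTCA occurred in the internal Ace window, as in 16.3% of all windows. None of the 10 windows held CACGTG, which 7.15% of all windows hold, nor TTATGTAA (0.938%) nor TGACGTCA (1.79%), which says only that these letters are not in these windows. The Mme-205, Mme-201 and upstream Ace windows had 32, 29 and 29 CpG dinucleotides, while Ren1 and Agt had 1 each, against a median of 7 over all windows. The start sites of these windows equal the annotated first base of Agt-201, Mme-205 and Mme-201. For Ren1 the RefSeq start was base 133350674, downstream of the annotated first base 133350510.

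In WT kidney the gene levels, in TPM and so per transcript length, ran from Ren1 at 127 ± 31.7 down to Mas1 at 1.43 ± 0.746 (SD, n = 12 throughout for WT). Between them stood Ace at 61.2 ± 7.51, Atp6ap2 at 43.6 ± 2.17, Enpep at 33.5 ± 1.97, Mme at 26.0 ± 2.27, Agt at 20.4 ± 2.88 and Agtr1a at 19.3 ± 1.90. Ace and Atp6ap2 overlapped, as did Mme and Agt, and Agt exceeded Agtr1a in only 7 of 12 libraries; the other neighbours in this order did not overlap. In the 11 KO libraries other than KO ZT4 A the order was Ren1, Atp6ap2, Agt, Mme, Ace, Enpep, Agtr1a and Mas1. There the ranges of neighbours overlapped from Atp6ap2 through to Enpep, while Ren1, Agtr1a and Mas1 stood clear of their neighbours. Ace was thus the second-ranked gene in WT and the fifth in KO, and Agt the sixth and the third.

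The first place of Ren1 among the gene sums rests on a short transcript. Of its TPM, 65.0 ± 2.82% in WT were assigned to Ren1-202, a short annotated transcript of 215 bases and 2 exons that shares 150 bases with the full-length Ren1-201 of 1592 bases. Ren1-201 alone stood at 44.3 ± 11.9 TPM in WT, below the 61.2 TPM summed over all Ace transcripts. Among single full-length transcripts, Ace-201 stood at 30.1 TPM and Atp6ap2-201 at 43.6 TPM in WT. Mice of 129 strains also carry Ren2, a near-identical copy of the renin gene that the reference strain lacks, and its reads cannot be told apart from those of Ren1 in these values. Ren1 levels below are therefore those of the renin genes together as far as reads were shared.

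**Figure D1:**
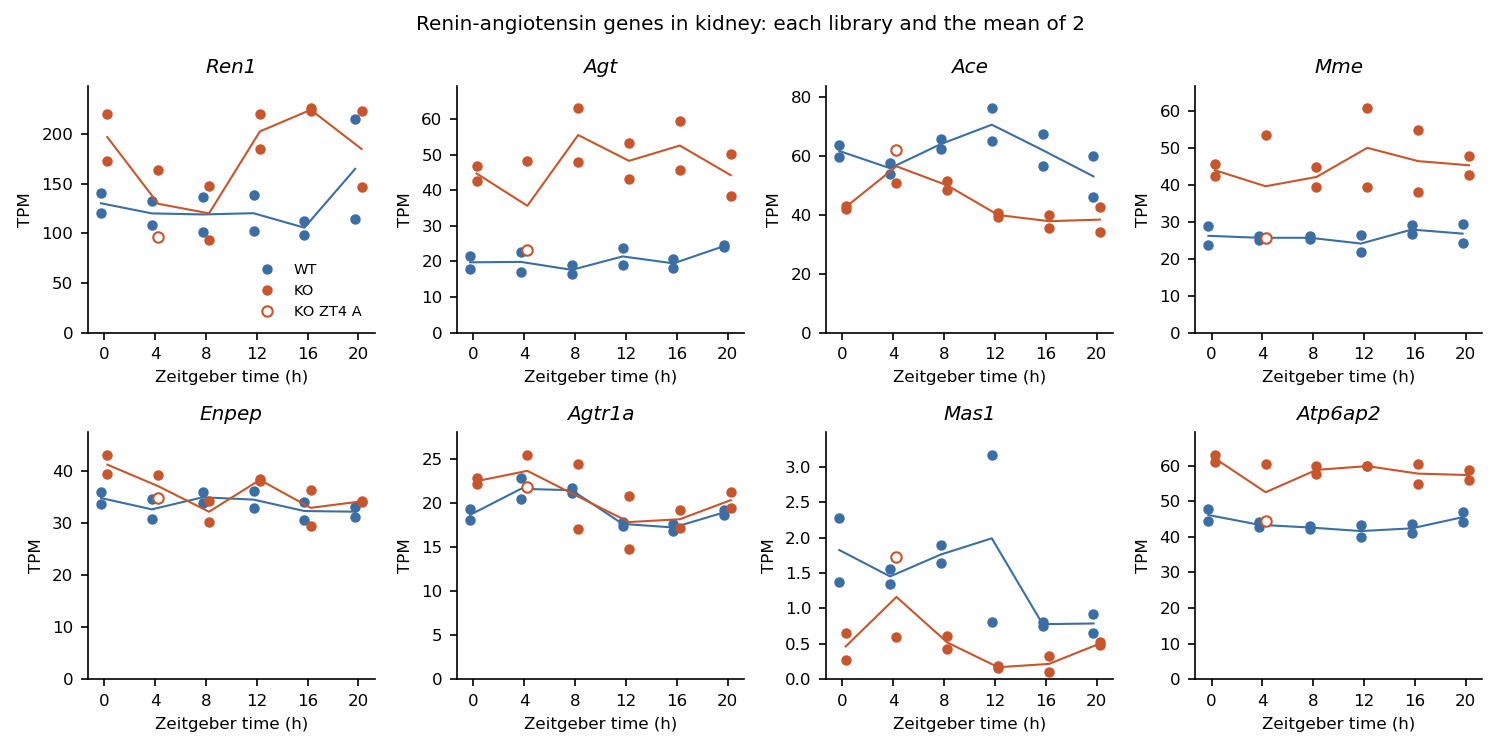
TPM of the 8 genes in each kidney library against zeitgeber time, WT in blue and KO in orange, lines joining the mean of the 2 libraries; the open circle is the library labelled KO ZT4 A, which the KO line includes. Agt, Mme and Atp6ap2 were higher in each of the other 11 KO libraries than in any WT library. The share of all genes separated in this way was not counted, and 50.9% of all tested genes were called higher in KO.

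Of the 7 tested genes, 4 were higher in KO (Agt, Mme, Ren1 and Atp6ap2), 1 was lower (Ace), and Enpep and Agtr1a did not pass the threshold of an adjusted p under 0.05 in limma. Among all 12874 genes tested, 50.9% were higher in KO and 10% lower, so the number of renin-angiotensin genes called higher was near that of genes at large. Their median change was 0.41 on the log2 scale against 0.15 over all genes. With median-of-ratios scaling, where 49.9% of all genotype calls were higher, 3 stayed higher (Agt, Mme and Atp6ap2) and Ace stayed lower. Leaving out both doubted libraries left the same 5 genes called in the same directions.

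Agt, the angiotensinogen gene (chr8:124556534-124569706, minus strand), differed most of the 7. It ranged from 16.4 to 24.6 TPM in WT with a median of 19.9, and from 23.1 to 63.0 TPM in KO with a median of 47.5. The lowest KO value was that of KO ZT4 A, inside the WT range, and the other 11 lay between 38.3 and 63.0, above every WT library. Here and below, the share of all genes with ranges separated in this way was not counted. Agt was 2.25-fold higher in KO, a log2 difference of 1.17 (SE 0.12, 95% interval 0.92 to 1.42, limma adjusted p = 4.77e-07), and higher at 6 of 6 times. Only 2.97% of all genes changed by more in either direction. The difference was smallest at ZT4 (0.76) and ZT20 (0.85) and largest at ZT8 (1.64), and it was 1.28 without both doubted libraries and 1.02 with median-of-ratios scaling.

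Ren1, the renin gene, had the largest spread relative to its mean of the tested 7 in both genotypes. It ranged from 98.5 to 215 TPM in WT with a median of 117, and from 93.0 to 226 TPM in KO with a median of 179. The ranges overlapped widely, and 5 of 12 KO libraries exceeded the highest WT library. Ren1 was 1.37-fold higher in KO, a log2 difference of 0.45 (SE 0.15, 95% interval 0.15 to 0.76, limma adjusted p = 0.0124). By time, the difference was -0.01 at ZT8, 0.07 at ZT4 and 0.20 at ZT20, and 0.59, 0.76 and 1.09 at ZT0, ZT12 and ZT16. At ZT16 both KO libraries (226 and 223 TPM) lay above both WT libraries (98.5 and 113), while at ZT8 the KO values of 93.0 and 147 enclosed the WT values of 101 and 137. Leaving out any 1 library kept the call, with log2 differences of 0.40 to 0.52. With median-of-ratios scaling it was 0.30 and missed the threshold (adjusted p = 0.0797).

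Renin cells and their neighbours were looked at beside Ren1. Of 6 genes of juxtaglomerular and mural cells, 3 were higher in KO, where 50.9% of all genes were: the smooth muscle genes Acta2 and Myh11, and Akr1b7, a gene of renin cells that stood at 1.92 ± 0.336 TPM in WT and 3.10 ± 0.663 in KO. With median-of-ratios scaling the same 3 were higher and Tagln was lower, and the median of the 6 went from 0.23 to 0.08. The sum of the 6 ranged from 55.9 to 79.9 TPM in WT and from 63.9 to 95.7 in the 11 KO libraries other than KO ZT4 A. The 2 tested genes of the thick ascending limb split, with Slc12a1 higher and Umod lower, and the macula densa genes Nos1 and Ptgs2 stayed under 1 TPM in every library. In whole kidney, fewer cells of a type and less RNA per cell cannot be told apart.

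Atp6ap2 (chrX:12587801-12617049, plus strand), which encodes the prorenin receptor and also serves the vacuolar proton pump, showed the tightest values. It ranged from 40.1 to 47.8 TPM in WT with a median of 43.4, and from 44.6 to 63.1 in KO with a median of 59.9. Again the lowest KO value was KO ZT4 A, and the other 11 started at 55.0, above every WT library. The log2 difference was 0.41 (SE 0.04, 95% interval 0.32 to 0.50, limma adjusted p = 4.88e-07), with KO higher at 6 of 6 times. Its size, 1.33-fold, was exceeded by 18.8% of all genes. Without both doubted libraries it was 0.44, and with median-of-ratios scaling 0.26 and still past the threshold.

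Ace (chr11:105967945-105989964, plus strand), which encodes the enzyme that forms angiotensin II, moved the other way. It ranged from 46.2 to 76.2 TPM in WT with a median of 61.2, and from 34.2 to 62.1 in KO with a median of 42.3. The highest KO value was KO ZT4 A at 62.1, and 8 of 12 KO libraries lay under the lowest WT library. The log2 difference was -0.48 (SE 0.08, 95% interval -0.64 to -0.32, limma adjusted p = 3.60e-05), so Ace fell to 0.718 of its WT level. KO was lower at 5 of 6 times, the exception being ZT4 with a difference of 0.01. Without the 2 doubted libraries the difference was -0.51, and with median-of-ratios scaling -0.63.

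Mme, the neprilysin gene (chr3:63241537-63386030, plus strand), ranged from 21.7 to 29.3 TPM in WT with a median of 26.1, and from 25.6 to 60.6 in KO with a median of 43.7. KO ZT4 A was again the lowest, and the other 11 KO libraries lay between 38.0 and 60.6, above every WT library. The log2 difference was 0.75 (SE 0.10, 95% interval 0.54 to 0.96, limma adjusted p = 6.61e-06), a 1.68-fold higher level, and KO was higher at 6 of 6 times. The spread between KO libraries was wide, 7.26 TPM (SD, n = 11) against 2.27 in WT. Without both doubted libraries the difference was 0.85, and with median-of-ratios scaling 0.60.

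Enpep, the aminopeptidase A gene (chr3:129269175-129332720, minus strand), did not pass. Neither did Agtr1a (chr13:30336441-30382867, plus strand), the gene of the main angiotensin II receptor in mouse kidney. Enpep ranged from 30.5 to 36.0 TPM in WT and from 29.4 to 43.0 in KO, with a log2 difference of 0.09 (SE 0.05, 95% interval -0.0019 to 0.19, limma adjusted p = 0.0827). Agtr1a ranged from 16.8 to 22.8 TPM in WT and from 14.8 to 25.5 in KO, with a log2 difference of 0.08 (SE 0.06, 95% interval -0.04 to 0.21, limma adjusted p = 0.243). The genotypes overlapped in both genes. Both intervals hold the median change of all genes, and with median-of-ratios scaling both signs turned, to -0.05 and -0.07. Leaving out WT ZT8 B, KO ZT8 A or KO ZT16 A brought Enpep past the threshold (adjusted p = 0.0401, 0.0236 and 0.0279), and leaving out KO ZT8 A did so for Agtr1a (0.0411). The pseudogene Gm42628 lies opposite Enpep and the sense intronic gene Gm48161 within Agtr1a, and neither was analysed here.

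Mas1, the receptor gene, was the least abundant and was tested in a fit without the filter on the mean. It ranged from 0.658 to 3.17 TPM in WT with a median of 1.36, and from 0.0972 to 1.73 in KO with a median of 0.451. The highest KO value was KO ZT4 A, and the other 11 ended at 0.650, just under the lowest WT library. The log2(TPM + 0.1) difference was -1.45 (SE 0.26, limma adjusted p = 0.000228), and KO was lower at 6 of 6 times. Without both doubted libraries it was -1.53. In that fit 6.49% of 24733 genes were called lower in KO. The added constant sets the size, since the difference was -0.68 with a constant of 1 and -1.70 with 0.01, all past the threshold. Mas1 TPM were divided by estimation over several annotated transcripts, each with a mean under 1 TPM, so none was tested. Mas1-201, the longest at 2401 bases, stood at 0.0965 ± 0.066 TPM in WT and 0.0635 ± 0.062 in KO (SD, n = 12 each). Another, of 1675 bases, stood at 0.401 ± 0.417 TPM in WT and 0.0260 ± 0.088 in KO. The difference given is therefore that of the sum alone. Airn, an antisense RNA gene at chr17:12741311-12860136, overlaps much of Mas1 (chr17:12841079-12868143) and was not analysed here. The sources used here do not say that strand was counted, so reads of the pair cannot be told apart.

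**Figure D2:**
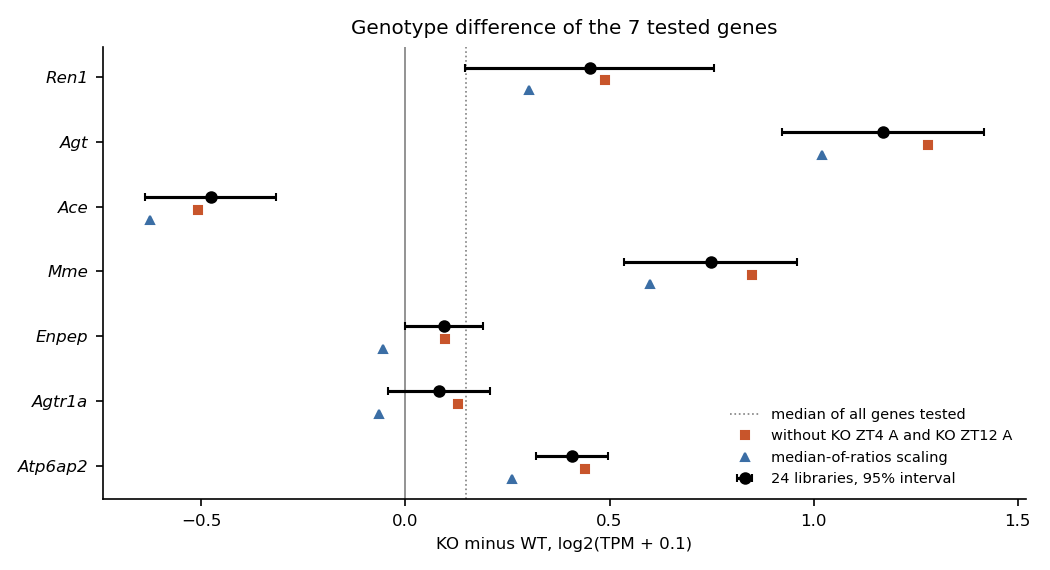
KO minus WT difference in log2(TPM + 0.1) for the 7 tested genes, with the 95% interval over 24 libraries (circles), the value without KO ZT4 A and KO ZT12 A (squares) and with median-of-ratios scaling (triangles); the dotted line is the median of all genes, 0.15. Agt, Mme and Atp6ap2 stay above 0 and Ace below it on each scale, while Enpep and Agtr1a cross 0.

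Other genes moved with the genotype in the same libraries. All 7 tested genes known to be high in male kidney were lower in KO, with a median log2 difference of -2.67, and all 4 female-high genes were higher, with a median of 3.52. Among all genes tested 50.9% were higher in KO and 10% lower. The summed male-high level ranged from 33510 to 44800 TPM in WT and from 10570 to 32330 in the 11 KO libraries other than KO ZT4 A, which held 39040. Most of that sum is 1 gene, Kap, with a mean of 36499 TPM in WT and 21880 in KO. Its log2 difference was -0.81, smaller in size than the median of the 7. The female-high sum ranged from 6.65 to 41.8 TPM in WT and from 176 to 813 in the same 11 KO libraries. So the library in which Agt, Mme, Atp6ap2, Ace and Mas1 lay within the WT range was also at the WT level for these genes. KO ZT12 A, with the lowest male-high sum, had Agt at 43.3, Mme at 39.3 and Ace at 40.6 TPM, inside the range of the other KO libraries. Of the 4 Y-linked genes none was called in limma with all libraries, and 3 were called higher in KO without KO ZT4 A and KO ZT12 A. Their median in that fit, 0.16 over the 4, was near the median of all genes, 0.15. There 83.1% of all genotype calls were higher in KO. The part of these genes in the results was not tested.

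**Figure D3:**
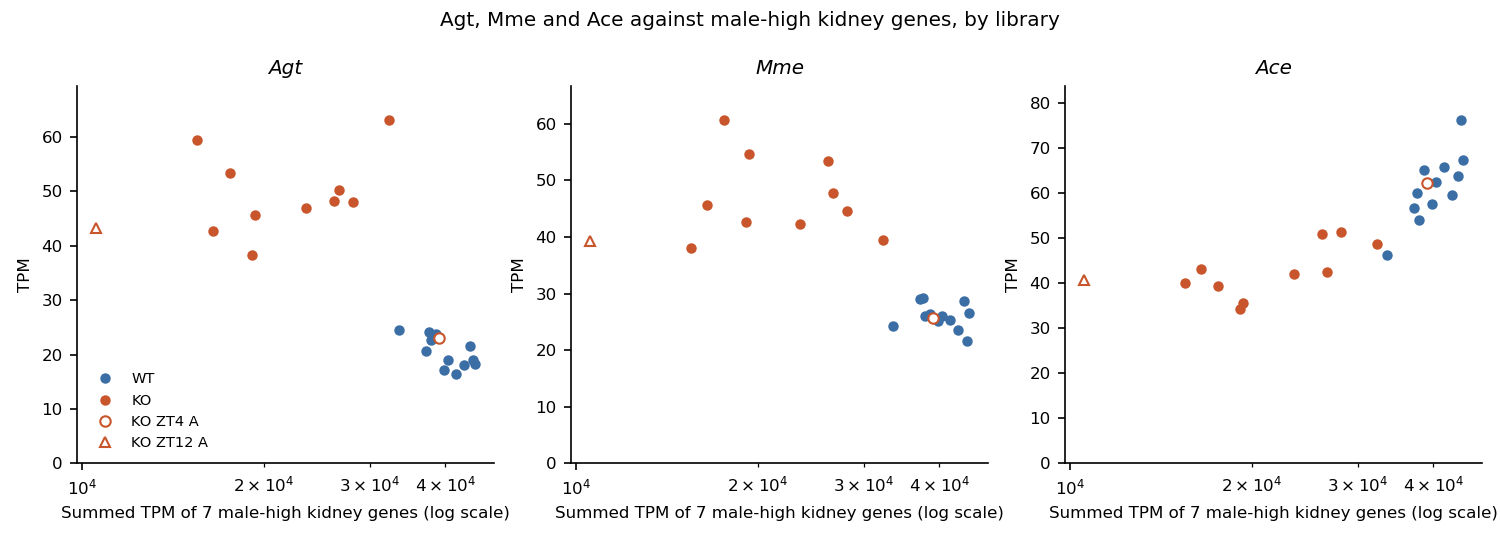
TPM of Agt, Mme and Ace in each library against the summed TPM of 7 male-high kidney genes on a log axis, WT in blue and KO in orange; the open circle is KO ZT4 A and the open triangle KO ZT12 A. Most of the sum is the gene Kap. KO ZT4 A, at a sum of 39040, lies among the WT libraries in all 3 panels.

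Cell type markers also moved, in part. All 4 podocyte, 3 intercalated, 2 principal and 2 distal tubule markers were higher in KO, and of the 7 proximal tubule markers 2 were higher (Slc5a2 and Slc5a12) and 2 lower (Slc22a6 and Slc7a13). These counts stand on the scale where 50.9% of all genes were higher. With median-of-ratios scaling the distal gene Pvalb lost its call, and the proximal tubule had 1 higher (Slc5a2) and 3 lower (Lrp2 besides). The proximal tubule sum, the compartment of Mme, Enpep and kidney Agt, ranged from 2228 to 2750 TPM in WT and from 1996 to 2829 in the 11 KO libraries. The podocyte sum ranged from 59.2 to 83.8 TPM in WT and from 79.0 to 118 in those KO libraries. Endothelial markers had 1 of 4 genes higher, Pecam1, and with median-of-ratios scaling also 1 lower, Flt1. Their sums were 64.2 to 93.9 TPM in WT and 59.3 to 105 in those KO libraries. Adrenal genes were near absent, at 0.726 to 2.56 TPM summed over 8 genes, and 6 of the 8 stayed under 1 TPM in every library. Of 5 blood and immune genes tested, 2 were higher, the haemoglobin genes Hba-a1 and Hbb-bs, and with median-of-ratios scaling 0 were higher and Ptprc was lower. Without the mitochondrially encoded genes Hbb-bs alone passed. Of 2 mesangial genes 1 was higher, Itga8. The 6 fat genes varied from 0.331 to 36.0 TPM summed, with no genotype call among the 4 tested. The liver makes most of the circulating angiotensinogen, and its 5 marker genes summed to 85.8 to 143 TPM in WT and 130 to 211 in those KO libraries. Of the 4 tested, Ttr was higher and Alb lower in KO, and without both doubted libraries Apob was higher as well. The part of these markers in the results was not tested.

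The transcripts behind each gene were then compared, among 26201 transcripts with a mean of at least 1 TPM, of which 31.9% were called higher and 7.13% lower in KO. Of 13 transcripts of the renin-angiotensin genes that were tested, 6 were higher and 2 lower. Agt was carried by 1 transcript and Atp6ap2 almost wholly by 1. Ace was split over Ace-201, the full-length form of 25 exons (49.3 ± 2.00% of Ace TPM in WT), Ace-203 of 20 exons (29.7 ± 1.67%) and Ace-202 of 14 exons (19.8 ± 2.64%). Ace-202 starts inside the gene, at the internal window printed above, near which transcription of the testis form of the enzyme is known to begin.

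Ace-201 fell from 30.1 ± 3.59 TPM in WT to 19.7 ± 4.38 in KO (SD, n = 12 each), by 0.63 on the log2 scale (limma adjusted p = 2.25e-05). Ace-203 fell from 18.2 ± 2.45 to 14.3 ± 2.52 TPM, by 0.36 (limma adjusted p = 0.00246). Ace-202 stood at 12.1 ± 2.50 TPM in WT and 9.49 ± 3.25 in KO, a difference of -0.41 that missed the threshold (limma adjusted p = 0.0681) and passed it without KO ZT4 A (0.0466) and with median-of-ratios scaling (0.0320). Without both doubted libraries it was -0.33 and missed it again (0.0641). The share of Ace-201 in Ace TPM was 44.4 ± 3.95% in KO. Ace-202 and Ace-203 share 2222 and 3464 bases with Ace-201, so most of their reads are divided by estimation. Gm11651, an antisense gene at chr11:105965608-105985694, overlaps Ace and was not analysed here.

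Mme TPM came mainly from Mme-205 and Mme-201, which start 223 bases apart in the windows printed above and share 3554 bases. Mme-205 rose from 13.2 ± 0.704 TPM in WT to 24.5 ± 4.80 in KO, by 0.85 on the log2 scale (limma adjusted p = 3.56e-06). Mme-201 rose from 11.7 ± 1.44 to 18.6 ± 5.28 TPM, by 0.62 (limma adjusted p = 0.00167). Both transcripts carried the higher level, and Mme-205 made up 51.0 ± 2.00% of Mme TPM in WT and 55.2 ± 6.01% in KO.

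Ren1-201, the full-length renin transcript, rose from 44.3 ± 11.9 to 61.6 ± 13.4 TPM, by 0.48 on the log2 scale (limma adjusted p = 0.00439). It stayed past the threshold with median-of-ratios scaling, at 0.33 (adjusted p = 0.0439). The short Ren1-202 stood at 82.3 ± 20.6 TPM in WT and 115 ± 36.3 in KO, a difference of 0.43 that missed the threshold (limma adjusted p = 0.0547) and passed it without KO ZT4 A (0.0196). Enpep-201, which made up 84.3 ± 4.16% of Enpep TPM in WT, was called higher by 0.11 (limma adjusted p = 0.0254), and its sign turned to -0.04 with median-of-ratios scaling.

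**Figure D4:**
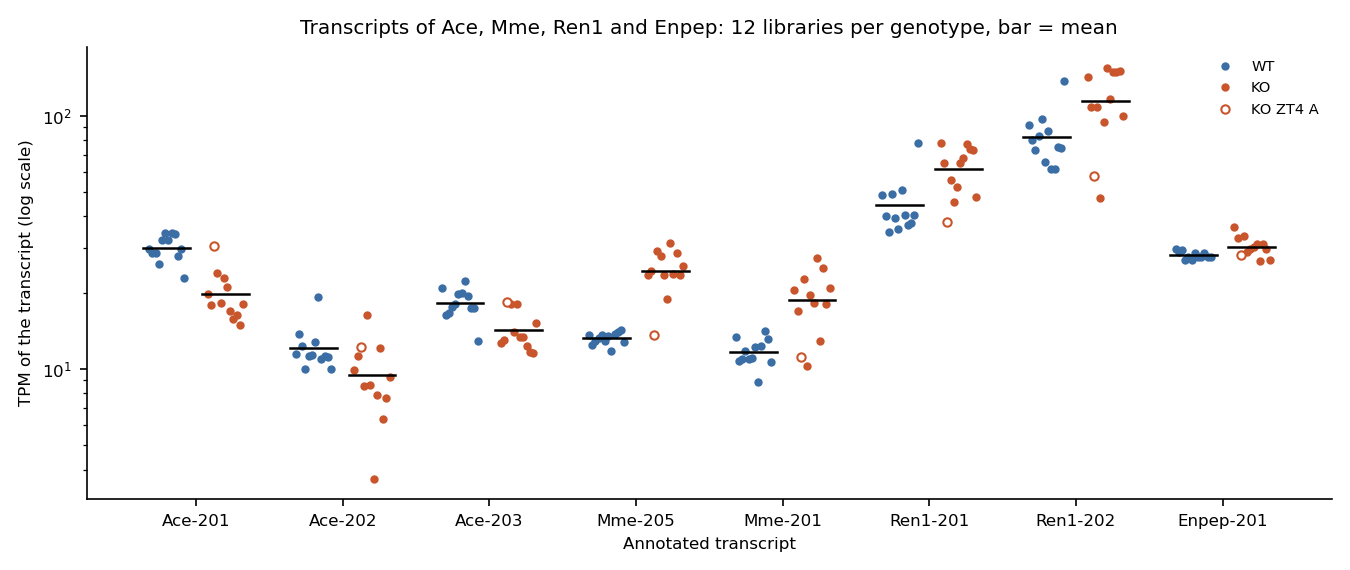
TPM of 8 annotated transcripts of Ace, Mme, Ren1 and Enpep on a log axis, 12 libraries per genotype, with the mean as a bar and KO ZT4 A as an open circle. Apart from KO ZT4 A, every KO library (18.9 TPM or more) lies above every WT library (14.3 TPM or less) for Mme-205, and 9 of these 11 lie below every WT library for Ace-201.

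Few of these genes passed a test of daily rhythm. A 24-hour cosine was fitted to each genotype, and the peak-to-trough value is its maximum minus its minimum on the log2 scale. In WT none of the 7 tested genes passed in limma, and 1, Agtr1a, had an unadjusted p under 0.05; 13.7% of all genes passed. In KO 1 of 7 passed, Ace, and 3 had an unadjusted p under 0.05 (Ace, Agtr1a and Ren1), while 3.64% of all genes passed; 1 of 7 is too few to read a share from. None of the 7 passed the test of a difference in rhythm between genotypes, 1 (Ace) had an unadjusted p under 0.05, and 0.629% of all genes passed.

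Ace in KO was highest at ZT4, with 62.1 and 50.8 TPM, followed by 48.6 and 51.4 at ZT8, and was lowest at ZT16 with 40.1 and 35.6 and at ZT20 with 34.2 and 42.6. Its fitted peak-to-trough value was 0.57 (SE 0.12) with a peak at ZT 5.16 h (SE 0.793 h, limma adjusted p = 0.0232). The highest point is the library that went against its label, and without it the value was 0.47 and missed the threshold (adjusted p = 0.0637), as it did without KO ZT20 A (0.0516). In WT, Ace was highest at ZT12 with 65.1 and 76.2 TPM and lowest at ZT20 with 59.9 and 46.2, with a fitted value of 0.28 (SE 0.12) peaking at 10.9 h (limma adjusted p = 0.225). The difference in rhythm between genotypes did not pass (adjusted p = 0.162).

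Agtr1a passed in neither genotype. In WT it was highest at ZT4 and ZT8, between 20.4 and 22.8 TPM, and lowest at ZT12 and ZT16, between 16.8 and 17.9, and these pairs of times did not overlap. The fitted peak-to-trough value was 0.31 (SE 0.12) with a peak at 4.70 h in WT (limma adjusted p = 0.162), and 0.42 (SE 0.12) with a peak at 2.11 h in KO (limma adjusted p = 0.0831). In KO the mean was highest at ZT4, with 21.9 and 25.5 TPM, while ZT8 held 17.0 and 24.5 and ZT12 14.8 and 20.9, so times overlapped. The difference in rhythm between genotypes did not pass (adjusted p = 0.646). Fitted to the WT libraries alone, Agtr1a passed (adjusted p = 0.0282). Ren1 in KO had the largest fitted value of the 7, 0.85 (SE 0.27) with a peak at 17.5 h, and did not pass (limma adjusted p = 0.135). In WT its value was 0.31 (SE 0.27), and 1 library, WT ZT20 B at 215 TPM, stood far above its partner at 115. For Agt, Mme, Enpep and Atp6ap2 no adjusted p was under 0.4 in either genotype, and the fitted values ran from 0.07 to 0.43. For Mas1, fitted without the filter, the values were 1.0997 in WT and 1.72 in KO, with limma adjusted p of 0.348 and 0.147.

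The other genes of the system were taken from fixed lists. Of 16 further angiotensin-processing enzymes 12 were tested, and 3 were higher in KO (Ctsa, Ece1 and Thop1), where 50.9% of all genes were higher and 10% lower. None was lower in limma, nor at an unadjusted p under 0.05 (0 of 12), with a median of 0.08 on the log2 scale against 0.15 over all genes. Thop1, an endopeptidase that cleaves angiotensin I, was higher by 0.22 (limma adjusted p = 0.00541). Ece1, a metalloprotease, was higher by 0.30, and Ctsa, a lysosomal carboxypeptidase, by 0.13. None of the 3 stayed past the threshold with median-of-ratios scaling, where Ctsa stood at -0.02 and the list had 0 higher and 2 lower (Ctsd and Nln), and without the mitochondrially encoded genes Thop1 alone passed. Ece1 also missed it without WT ZT0 B, WT ZT8 B, KO ZT0 B or KO ZT12 B. Ctsa missed it without WT ZT0 B, WT ZT12 B, WT ZT16 A, KO ZT0 A, KO ZT4 B, KO ZT8 B or KO ZT12 B.

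Of 11 receptors and partners 8 were tested, 3 were higher (Arrb1, Gnaq and Gna11) and 1 lower (Igf2r). With median-of-ratios scaling Arrb1 alone stayed higher and Igf2r lower. On the TPM scale 50.9% of all genes were higher and 10% lower. Arrb1, a beta-arrestin that binds activated receptors, was higher by 0.43 (limma adjusted p = 2.40e-05), and Gnaq, the G protein subunit that the angiotensin II receptor acts through, by 0.22. Gnaq stood at 0.07 with median-of-ratios scaling (limma adjusted p = 0.287). It also missed the threshold without the mitochondrially encoded genes (limma adjusted p = 0.0603). Igf2r, which binds mannose-tagged proteins, fell by 0.22 on the log2 scale. Agtr1b, Agtr2 and Mrgprd stayed under a mean of 1 TPM and were not tested.

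Of 20 regulators of renin expression and release 16 were tested, 10 were higher and 2 lower, or 6 and 2 with median-of-ratios scaling, and the median was 0.23. On the TPM scale 50.9% of all genes were higher and 10% lower, and the list's shares on that scale lie near these. With median-of-ratios scaling 49.9% of all genotype calls were higher. Adcy6, an adenylyl cyclase, went from 18.6 to 27.9 TPM (log2 difference 0.57, limma adjusted p = 2.28e-06). Npr1, the receptor for atrial natriuretic peptide, was higher by 0.53, and Rbpj, a factor that maintains renin cells, by 0.24. The 2 that were lower were Nr1h3, a sterol-sensing nuclear receptor, and Slc12a2, a chloride cotransporter.

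Of 9 brush border peptidases and partners other than Mme and Enpep, all tested, 4 were higher and 1 lower, with a median of 0.08, where 50.9% of all genes were higher and 10% lower. Folh1, a carboxypeptidase, went from 38.4 to 156 TPM (log2 difference 1.97, SE 0.18, limma adjusted p = 3.86e-07), and Ggt1, which handles glutathione, fell by 0.59 on the log2 scale. Dpp4, Xpnpep2 and Cltrn were also higher, and Anpep, Mep1a, Mep1b and Dpep1 did not pass. A further list held 7 genes of the kinin and natriuretic peptide systems: precursors, receptors and a protease. Of these 5 were tested and 3 were higher: the kinin precursor genes Kng1 by 0.99 and Kng2 by 0.71, and the receptor gene Npr1. With median-of-ratios scaling, where 49.9% of all genotype calls were higher, the brush border list had 4 higher and 2 lower (Ggt1 and Mep1a). The kinin list had 3 and 1 (Npr3). Without both doubted libraries the counts of all 5 lists were as with them, with Dpp3 called in place of Ece1.

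**Figure D5:**
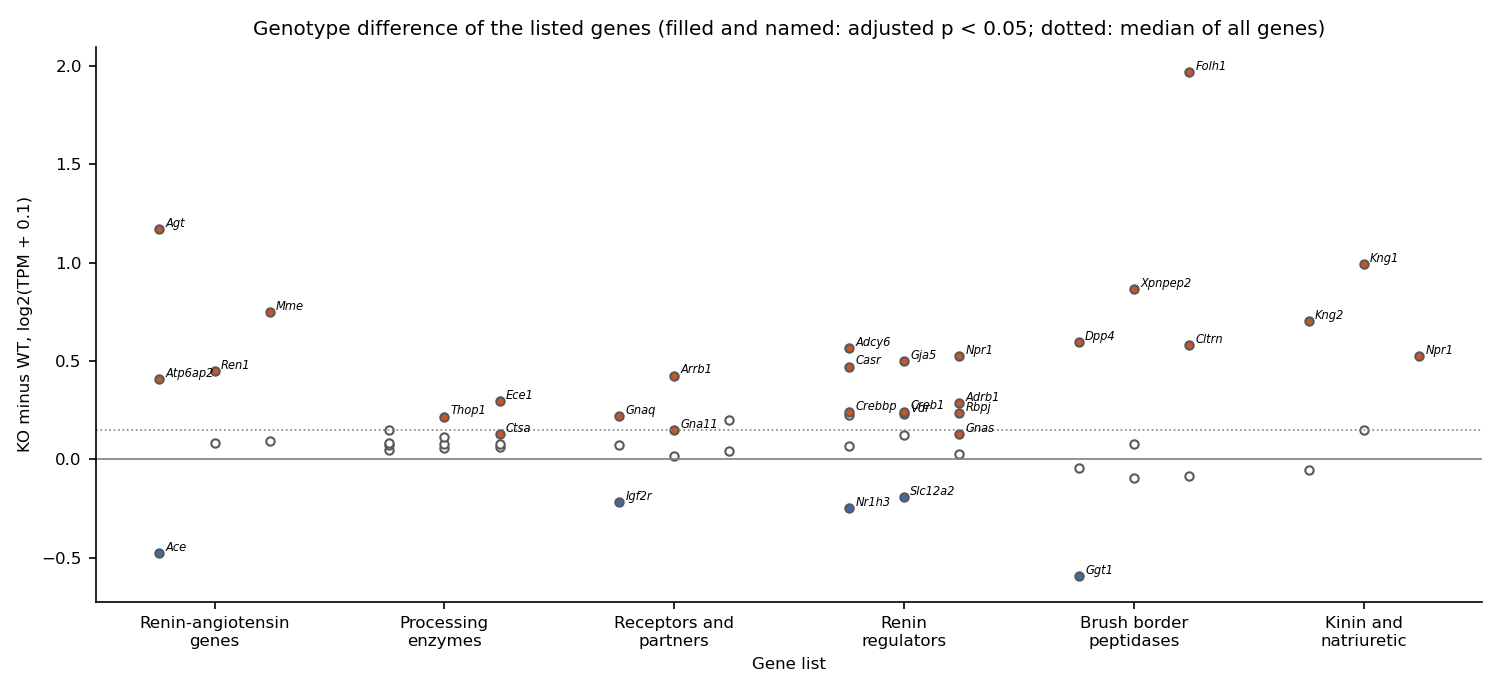
KO minus WT difference in log2(TPM + 0.1) for each tested gene of the renin-angiotensin genes and the 5 further lists, filled and named where the adjusted p is under 0.05; the dotted line is the median of all genes, 0.15. Folh1 (1.97) and Agt (1.17) lie at the top, and Ggt1 (-0.59) and Ace (-0.48) at the bottom.

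By time of day, 5 of the 47 tested genes of these lists passed in WT, where 13.7% of all genes did: Thop1, Prep, Igf2r, Npr1 and Creb1. Npr1 kept its call in all 24 fits with 1 library left out, Thop1 lost it without WT ZT8 A, and Prep, Igf2r and Creb1 each lost it in 5. Leaving out a KO library keeps the fitted WT curve, so only fits without a WT library bear on it, and all these losses were among those. Without the mitochondrially encoded genes Prep and Creb1 missed the threshold (adjusted p = 0.118 and 0.0519). Npr1 had the largest peak-to-trough value of them, 0.67 (SE 0.15) with a peak at 22.2 h (limma adjusted p = 0.0126). In KO, where 3.64% of all genes passed, 1 of the 47 did: Rgs2, a brake on the G protein of the angiotensin II receptor, at 0.87 (SE 0.20, limma adjusted p = 0.0343), and it missed the threshold without KO ZT0 B, KO ZT8 B, KO ZT12 A, KO ZT12 B, KO ZT20 A or KO ZT20 B. None of the 47 passed the difference in rhythm in limma, and 6 had an unadjusted p under 0.05.

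Across the 24 libraries, which share the genotype contrast and the TPM scale, Agt, Mme and Atp6ap2 followed each other most closely. Pearson correlations of log2(TPM + 0.1) were 0.94 for Agt with Atp6ap2, 0.93 for Mme with Atp6ap2 and 0.89 for Agt with Mme. Ace ran against Atp6ap2 (-0.84), Ren1 (-0.82), Agt (-0.80) and Mme (-0.80). Agtr1a was below 0.3 in size with each of the other 6. These are descriptions of levels that differ by genotype, with no test.

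For each gene the 3 most similar of all tested genes were listed by the same correlation. Agt lay nearest Rpl7a (0.97), Pla2g7 (0.97) and Igfbp7 (0.96). Mme lay nearest Sdha (0.97), Nedd9 (0.95) and Lamp2 (0.95). Atp6ap2 lay nearest Lyplal1 (0.98), Rdh16f2 (0.97) and Ermp1 (0.97). Ace lay nearest Atrnl1 (0.93), Ubxn8 (0.93) and Lipo3 (0.92), and Ren1 nearest Adgrf5 (0.87), Iqgap2 (0.84) and Acsf2 (0.84). Agtr1a and Enpep had weaker partners, Smap2 (0.84), Clba1 and Dennd1a (0.79 each), and Lrig3 (0.80), Pdcl (0.79) and Vldlr (0.78).

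Ren1 (chr1:133350510-133360325, GRCm38) also fell inside the deposited 4C-seq windows of the Slc45a3 baits, on the same chromosome. 4C-seq reads which DNA lies near a chosen bait fragment in the nucleus. It was done at ZT20 in C57BL/6 mice with free access to food, and the values hold both libraries of a tissue at once. In the authors' deposited table for each bait, 20 restriction fragments lay over Ren1, at 1387.4 to 1397.5 kb from the bait called long and at 1378.9 to 1389.0 kb from the one called short. The mean signal of these fragments in the authors' deposited table was 0.0344 in liver and 0.0365 in kidney for the long bait, and 0.0584 and 0.0632 for the short bait. It was close to the median of all fragments in the authors' deposited table (0.0361 and 0.0344, and 0.0659 and 0.0671). That median takes in fragments at every distance from the bait and is not matched to the distance of Ren1. The p-values of liver against kidney in the authors' deposited table ran from 0.366 to 0.948 and from 0.405 to 0.946, so no fragment over Ren1 passed 0.05 for either bait, while 2.22% and 4.59% of all fragments did.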

How the data were processed

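Transcript-level TPM were deposited by the authors for every kidney library, estimated with kallisto 0.42.4 on mm10 per the submitters' processing notes; the annotation release and whether strand was used were not given in the sources used here. TPM keep no sequencing depth, so no counting interval was computed. Transcripts were summed to genes by Ensembl identifier without version through GENCODE M21; 86119 of 88198 transcripts matched, and the others held 1.35% to 2.24% of TPM. Genes averaging 1 TPM or more (12874) were fitted as log2(TPM + 0.1) in limma 3.58.1 (R 4.3.3; lmFit, eBayes with trend and robust options), with Benjamini-Hochberg adjustment over all genes and a threshold of 0.05. The genotype model held time as a 6-level factor; rhythm was the F test of a 24-hour cosine and sine per genotype, over all 24 libraries. Transcripts were fitted likewise. Tests were two-sided or F tests and were tried on simulated data. Intervals are 95% intervals of the moderated fit.

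For 4C-seq the authors deposited, per the file headers, a smoothed signal per tissue, a score (Z, liver versus kidney) and its p-value, with 2 libraries of a tissue combined. Distances from the bait were matched to midpoints of the fragments between neighbouring GATC cut sites of chromosome 1 in GRCm38. The bait position and the way of taking midpoints were those that gave the best match, in which 100% of distances fell on a midpoint. The submitters' notes name mm9 for these libraries; offsets are relative, and positions printed are GRCm38.

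The 8 genes, the gene lists and the marker lists were chosen with earlier results of these data known. Named genes were all 8, Arntl, Cry1 and Nr1d1, up to 3 genes per list and test with the smallest p past the threshold, and the 3 most correlated genes; other listed or marker genes were named after their values were seen. 1 listed gene is not reported here and was left out of the counts; other genes found in more than 1 list were counted in each. The replicate letters did not pair the libraries. Alternatives covered pseudocounts of 1 and 0.01, no filter or a mean of 5 TPM, median-of-ratios scaling, rescaling without mitochondrially encoded genes, the replicate block, eBayes without its options, each library left out, and other time models. Settings without KO ZT4 A or KO ZT12 A together with other choices, the unfiltered Mas1 fits and the list counts by setting were chosen after seeing the data.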

Additional observations from a re-analysis of the deposited data

How the results depend on the processing

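The genotype differences of Agt, Ace, Mme and Atp6ap2 kept their direction and their side of the threshold under every alternative run. Ren1 missed it with median-of-ratios scaling alone. That scaling turned Agtr1a to -0.066 and Enpep to -0.054 (-0.068 and -0.061 without KO ZT4 A as well), and the transcripts Agtr1a-201 to -0.071 and Enpep-201 to -0.041, none past the threshold; Enpep-205 turned to 0.10 with a pseudocount of 1. Ctsa turned to -0.017 with median-of-ratios scaling and -0.014 without KO ZT4 A as well. Leaving out 1 library gave 7410 to 8101 genes and 5 to 7 of the 7 renin-angiotensin genes for the genotype difference, 1194 to 2140 and 0 for rhythm in WT, 272 to 626 and 0 to 1 for rhythm in KO, and 37 to 112 and 0 for the difference in rhythm. Other settings that moved counts were no filter (295 genes rhythmic in KO and 43 with a difference in rhythm), WT libraries alone (2843 genes and 1 of the 7, Agtr1a), KO libraries alone (12 genes, 0 of the 7), KO libraries alone without KO ZT4 A (11 and 0), and time as a 6-level factor (576 genes in WT, 28 in KO, 23 for the difference, 0 of the 7 in KO). Leaving out KO ZT4 A and KO ZT12 A left 0 of the 7 rhythmic in KO. So the KO rhythm of Ace held in 22 of 24 fits with 1 library left out and in none of these other time models. Leaving out a WT library keeps the fitted KO curve, so only fits without a KO library bear on it. Both losses were among those (KO ZT4 A and KO ZT20 A), and the cause was not tested.

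The replicate letters did not pair the libraries: over 66 pairs of groups the correlation of A minus B ran from -0.32 to 0.34 with a median of 0.02. With the letter as a replicate block 7873 genes and 5 of the 7 were called for the genotype difference, against 7844 and 5, and no call among the 7 changed. TPM hold no depth, so the precision of the low values, Mas1 above all, is unknown.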
